A study of Saccharomyces cerevisiae with 8 samples.

Results

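The 8 genes described here are open reading frames of the budding yeast Saccharomyces cerevisiae that were read at low density and lie under 500 nt behind a much more abundant gene on the same strand. They were picked from the 10799 yeast features of the series because they were among the ORFs in this position with the largest differences between a Dbp2-tagged strain and its parent. They are YMR230W-A, YBR032W, RRT5 (YFR032C), SPO19 (YPL130W), GAS2 (YLR343W), YMR141C, MBR1 (YKL093W) and DMC1 (YER179W). The differences between the strains chose them, so those differences are given as a description with no test. All 8 lay under 500 nt behind a gene at least 10-fold higher. Over the 8 libraries the label of low ORFs held for 7 of the 8 at a cut of 0.427 reads per nt, the median of the protein-coding features tested. The mean density of YMR230W-A over the 8 libraries was 1.11. It passed the cut by its tagged libraries, with group means of 1.33 untreated and 2.92 with rapamycin. In the parental strain its means were 0.0912 and 0.0847, under the cut.

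The series sequenced rRNA-depleted total RNA by a stranded protocol in 8 libraries, 2 biological replicates in each of 4 groups. The parental strain was W303 of mating type MATalpha, with the nutritional alleles ade 2-1, trp1-1 and ura3, mutant alleles of the leucine gene LEU2 and the histidine gene HIS3, the canavanine-resistance allele can1-100, and GAL psi+, and all 4 groups carried the tor1-1 allele, fpr1::NAT and RPL13A-2xFKBP12::TRP1. The tagged strain was the same with DBP2-FRB-GFP-KanMX6, which its source name gives and its genotype field does not. Each strain was grown in YPD at 30 °C to an OD600 of 0.5 and taken untreated or after 1 h with 1 µg/mL rapamycin. In such an anchor-away strain, rapamycin ties the FRB tag on a nuclear protein to FKBP12 on a ribosomal protein, and the protein leaves the nucleus with the ribosome. The position of the Dbp2 protein was not measured in these files, and DBP2 RNA does not test it: its difference between tagged and parental cells was 0.27 ± 0.16 on the log2 scale without rapamycin (limma adjusted p = 0.168) and 0.53 ± 0.16 with it (adjusted p = 0.00625). The latter call was lost without parental rapamycin replicate 1 (adjusted p = 0.0568) or tagged rapamycin replicate 1 (0.184), and the value turned to −0.14 after scaling to snoRNAs. Depth ran from 22521854 to 27498485 yeast reads a library, with 2.93 to 4.44% of reads from spike-ins. A level is a read density, reads per nt of the feature after the authors' scaling by spike-ins, so more RNA per cell and more cells per amount of spike-in cannot be told apart. A difference is log2 ± standard error on the scale of log2(density + 0.00735), which understates the change of genes as low as these.

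Messenger RNAs end where the cleavage and polyadenylation machinery cuts the transcript behind the coding sequence. RNA polymerase II runs on past that point, and a 5′-to-3′ exonuclease that degrades the uncapped remainder helps to take it off the DNA. Short noncoding transcripts, small nucleolar RNAs among them, use instead the Nrd1-Nab3-Sen1 complex, which binds short motifs in the RNA. Yeast genes lie close together, so the start of a gene can sit at a short distance from the end of its neighbour. Dbp2 is a DEAD-box RNA helicase that acts on nascent RNA and mRNP assembly.

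The 3 ORFs whose strain difference was highest with rapamycin are shown with their start codon in capitals, and in YMR230W-A, which is short enough to print whole, the stop codon is in capitals too. YMR230W-A is chrXIII:733268-733456 on the plus strand, YBR032W is shown from chrII:301519-301608 on the plus strand and RRT5 from chrVI:222870-222959 on the minus strand, all 5′ to 3′ from the RefSeq R64 sequence. In each the annotated frame opens with ATG, and GC content ran from 30.7% in YMR230W-A to 48.5% in RRT5, beside a median of 39.7% over 6002 nuclear protein-coding genes.
YMR230W-A: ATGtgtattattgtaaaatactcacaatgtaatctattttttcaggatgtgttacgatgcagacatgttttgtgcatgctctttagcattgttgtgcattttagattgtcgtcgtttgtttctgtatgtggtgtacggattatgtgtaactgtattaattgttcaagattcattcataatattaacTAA
YBR032W: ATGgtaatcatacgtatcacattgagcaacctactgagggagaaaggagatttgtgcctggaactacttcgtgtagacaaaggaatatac
RRT5: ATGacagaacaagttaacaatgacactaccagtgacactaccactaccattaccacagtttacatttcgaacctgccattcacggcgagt

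The DNA in front of these ORFs is where the RNA of the abundant gene ends, so the 100 nt behind each front gene's stop codon were searched on that gene's strand for the letters TATATA, a form of the efficiency element of yeast polyadenylation sites, and for GTAA and TCTT, which are recognition letters of Nrd1 and Nab3. TATATA, which is its own reverse complement, was found behind RPL4A, RPL29 and RPL5, 3 of the 8, beside 33.7% of 6002 genes. Each is shown in a stretch of 30 bases with the match in capitals.
RPL4A, chrII:301278-301307, plus strand: tcttttatttttTATATAcatacataagcc
RPL29, chrVI:223188-223217, minus strand: tttgtctgatttTATATAacatgttttatt
RPL5, chrXVI:304011-304040, plus strand: ataaattatggaTATATAacgtcattttga
GTAA was found behind 4 of the 8 front genes, beside 41.9% of all genes, and TCTT behind 6 of the 8, beside 51.5%. These are matches of letters, and their absence from this window says nothing about a factor. GTAA and TCTT were counted independently of TATATA, so a TCTT match may share a base with a TATATA match.

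YMR230W-A (R64 chromosome XIII 733268–733456), a putative protein-coding gene of unknown function, begins 126 nt behind the stop codon of RPS10B, which encodes a protein of the small ribosomal subunit. Its density was 0.0709 and 0.111 in the 2 untreated parental libraries and 1.48 and 1.19 in the untreated tagged libraries. With rapamycin it was 0.0642 and 0.105 in the parent and 3.12 and 2.72 in the tagged strain. The strains did not overlap in either condition, and the tagged strain was higher still with rapamycin. The fold of the mean densities was 14.6 untreated and 34.5 with rapamycin, and the fitted difference was 3.79 ± 0.20 and 5.03 ± 0.20. Of the 9719 features tested, 1 had a higher difference without rapamycin and 0 with it. The values rest on 12 to 22 reads in the parental libraries and 225 to 505 in the tagged libraries.

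YBR032W (chromosome II 301519–301821), annotated as a dubious ORF in the yeast databases, begins 264 nt behind RPL4A, which encodes a protein of the large subunit. Its density was 0.0197 and 0.0316 in untreated parental cells and 0.269 and 0.27 in untreated tagged cells. With rapamycin the parental values were 0.0334 and 0.0313 and the tagged values 0.424 and 0.25. Here the step between the strains was about equal in both conditions, with folds of 10.5 and 10.4, and the 2 treated tagged libraries spanned the untreated ones. In reads this is 8 to 10 in the parent and 60 to 110 in the tagged strain.

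RRT5 (chromosome VI 222090–222959, minus strand), a gene named from a screen for regulators of rDNA transcription, begins 298 nt behind RPL29, a large-subunit ribosomal protein gene. Its density was 0.00428 and 0.011 in untreated parental and 0.0691 and 0.0595 in untreated tagged libraries. With rapamycin it was 0.00232 and 0.00763 in the parent and 0.264 and 0.199 in the tagged strain. The treated tagged libraries stood above all others, and the fold of the means went from 8.42 without rapamycin to 46.6 with it. Parental libraries held 2 to 10 reads of it, and the ratio of the summed reads with rapamycin was 46.1, with an exact 95% counting interval of 24.0 to 102. Such intervals cover counting error only.

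SPO19 (chromosome XVI 304387–305058), a meiosis-specific gene of the prospore membrane, begins 372 nt behind RPL5 and was the lowest of the 8. It had 2 and 1 reads in untreated parental, 16 and 24 in untreated tagged, 1 and 0 in treated parental and 19 and 18 in treated tagged libraries. Its densities were 0.00222, 0.00142, 0.0231, 0.0356, 0.0015, 0, 0.033 and 0.0339 in that order. The groups did not overlap between strains. The read ratio was 15.6 without rapamycin (exact 95% counting interval 4.98 to 79.0) and 45.9 with it (7.75 to 1863). SPO19 passed the minimum mean density of 0.0127 by its tagged libraries, since its parental densities were all below that minimum. A difference between the strains was a condition of its being measured.

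**Figure D1:**
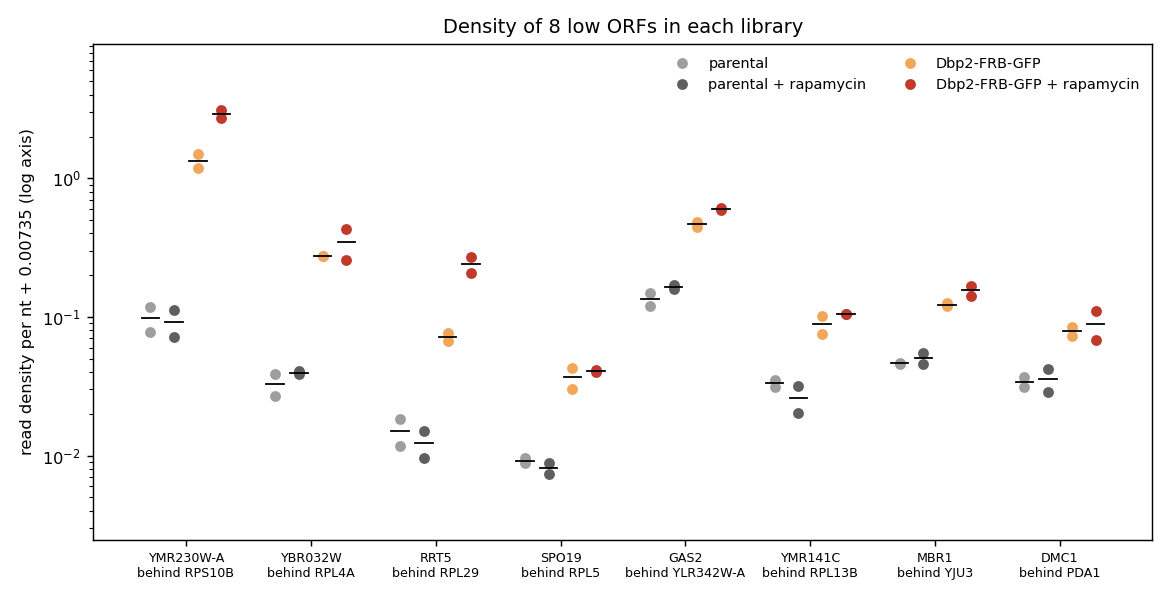
Read density (reads per nt, log axis, plus the pseudocount) of the 8 ORFs in each library, with the 4 groups side by side and a bar at the mean of the 2 replicates. In every ORF both tagged libraries sit above both parental libraries in either condition, and the widest steps are those of YMR230W-A, RRT5, YBR032W and SPO19.

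The other 4 differed less. GAS2 (chromosome XII 816094–817761), a glucan-remodelling enzyme of spore wall assembly, begins 110 nt behind the small ORF YLR342W-A and 466 nt behind FKS1, the catalytic subunit of glucan synthase. It had the most reads of the 8, and its density was 0.112 and 0.142 in untreated parental, 0.477 and 0.437 in untreated tagged, 0.162 and 0.151 in treated parental and 0.601 and 0.582 in treated tagged libraries. That is a fold of 3.60 untreated and 3.78 with rapamycin. YMR141C (chromosome XIII 549736–550044, minus strand), a dubious ORF 161 nt behind RPL13B, had 0.0241 and 0.0279, 0.0942 and 0.0677, 0.0131 and 0.0245, and 0.0983 and 0.0982 in the same order, from 4 to 30 reads. Its folds were 3.11 and 5.22.

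MBR1 (chromosome XI 264789–265808), which has a role in mitochondrial function and stress, begins 498 nt behind YJU3, a monoglyceride lipase gene, just inside the limit on distance. Its densities were 0.0388 and 0.0392 in untreated parental, 0.112 and 0.119 in untreated tagged, 0.0477 and 0.0381 in treated parental and 0.16 and 0.135 in treated tagged libraries, with folds of 2.96 and 3.44. DMC1 (chromosome V 548421–549517), the meiotic recombinase, begins 341 nt behind PDA1, a subunit gene of pyruvate dehydrogenase. It had 0.0238 and 0.0297, 0.0769 and 0.0654, 0.035 and 0.0216, and 0.103 and 0.0611 in the same order, with folds of 2.66 and 2.90. Both genes kept the 2 strains apart in each condition. Over the 8 ORFs, 8 of 8 had no overlap between the strains without rapamycin, where 68.8% of all tested features had both tagged libraries above both parental ones, and 8 of 8 with rapamycin, where 83.1% did. Nothing is read from these counts, because the ORFs were picked on the same values. The median of their differences was 1.89 untreated and 2.19 with rapamycin, beside 0.36 and 0.59 over all features.

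The genes in front did not take part in the choice by their own change, and they were tested. Without rapamycin 4 of the 8 were higher in tagged cells, where 43.5% of all features and 33.1% of protein-coding features were, and with rapamycin 7 of the 8, beside 70.3 and 66.0%. RPL29 rose by 0.74 ± 0.12 and 0.83 ± 0.12 (limma adjusted p = 7.3e-05 and 8.55e-06), from densities of 15.9 and 18.1 to 28.5 and 27.9 untreated. After scaling to snoRNAs both of its calls were lost (0.0835, adjusted p = 0.732, and 0.16, 0.541). RPL5 rose by 0.52 ± 0.14 and 0.81 ± 0.14 (adjusted p = 0.00551 and 6.25e-05) and RPS10B by 0.49 ± 0.13 and 0.65 ± 0.13 (adjusted p = 0.00551 and 0.00032). The fitted changes were smaller than those of the ORFs behind them, and under the same scaling RPS10B turned to −0.16 and −0.0255 and RPL5 to −0.13 without rapamycin. With rapamycin the call of RPL5 was lost under it (0.13, adjusted p = 0.568). RPL13B rose by 0.34 ± 0.14 (adjusted p = 0.0475) and 0.54 ± 0.14 (0.0018), turning to −0.31 and −0.13 after scaling to snoRNAs.

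RPL4A, in front of YBR032W, is the front gene with the smallest difference. It was read at 19.5 and 23.3 in untreated parental and 20.4 and 19.7 in untreated tagged libraries. Its difference was −0.09 ± 0.13 (adjusted p = 0.566) untreated and 0.04 ± 0.13 (adjusted p = 0.778) with rapamycin. Under quantile, protein-coding and snoRNA scaling RPL4A was called lower in both conditions. The values in that order were −0.45, −0.34 and −0.74 untreated and −0.50, −0.45 and −0.63 with rapamycin. The ORF behind it stood at more than 10 times its parental density. With rapamycin the calls also took in YJU3 (0.47 ± 0.15, adjusted p = 0.00822), YLR342W-A (0.39 ± 0.12, 0.00865) and PDA1 (0.33 ± 0.13, 0.0256), which turned to −0.0196, −0.11 and −0.16 after scaling to protein-coding features. That scaling moved the median of all features from 0.36 to 0.13 without rapamycin and from 0.59 to 0.13 with it. Leaving out 1 library ended several calls: without parental untreated replicate 1 those of RPS10B (adjusted p = 0.0893), RPL5 (0.119) and RPL13B (0.400) untreated, and without parental rapamycin replicate 1 those of YLR342W-A (0.105), YJU3 (0.0933) and PDA1 (0.138). YJU3 and PDA1 were also lost without tagged rapamycin replicate 1 (0.0664 and 0.145), PDA1 without parental rapamycin replicate 2 (0.0998), and RPL13B untreated without either tagged untreated replicate (0.222 and 0.0998) or, narrowly, either parental rapamycin replicate (0.0533 and 0.0534). RPL4, RPL13 and RPS10 exist as near-identical gene pairs, and no source used here says how reads that fit both copies were counted.

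**Figure D2:**
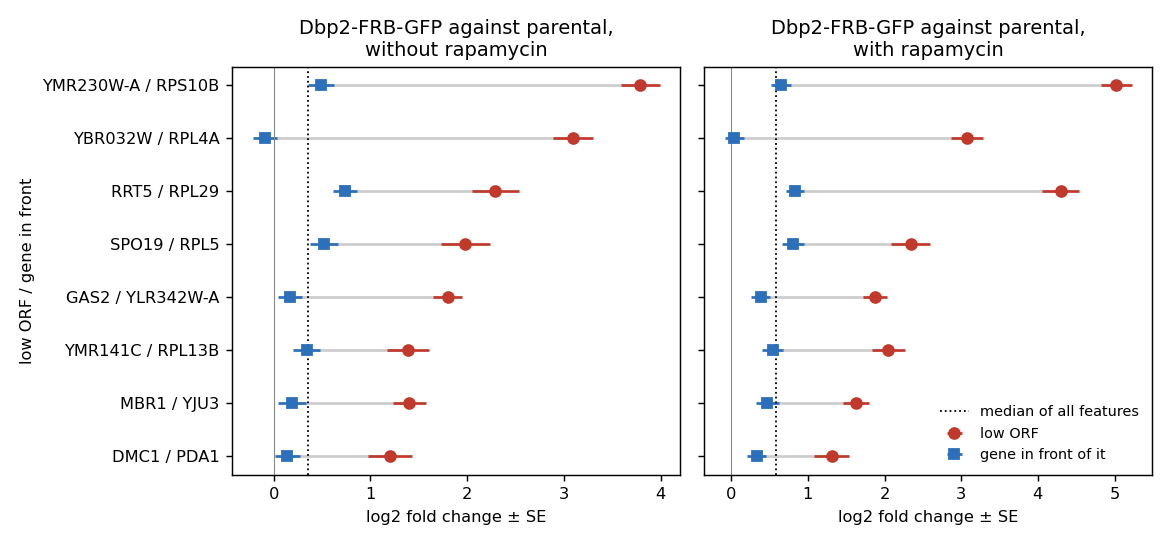
Log2 difference of tagged against parental cells ± standard error for each low ORF (circles) and the gene in front of it (squares), without and with rapamycin, with a dotted line at the median of all tested features. Each ORF lies to the right of its front gene, by 1.05 for YMR141C to 3.30 for YMR230W-A on the log2 scale without rapamycin.

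Within a library the density of an ORF can be set against that of its front gene, a share that no scaling of libraries changes. YMR230W-A stood at 0.701 and 0.894% of RPS10B in untreated parental cells and 0.578 and 0.853% in treated ones, and at 9.27 and 7.57% in untreated and 15.7 and 16.1% in treated tagged cells. YBR032W went from 0.101 and 0.136% of RPL4A to 1.32 and 1.37% untreated, and from 0.153 and 0.134% to 1.74 and 1.14% with rapamycin. RRT5 went from 0.027 and 0.0609% of RPL29 to 0.242 and 0.213% untreated, and from 0.0144 and 0.0435% to 0.85 and 0.688% with rapamycin. Even where highest, the ORFs were thus read at a small part of the density of the gene in front. GAS2 was at 1.14 to 1.54% of YLR342W-A in parental and 3.78 to 4.26% in tagged libraries, and MBR1 at 3.37 to 4.63% and 9.08 to 10.8% of YJU3. SPO19, YMR141C and DMC1 stayed under 1% of their front genes in all libraries.

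Feature lengths were not given with the densities. Each was recovered as a length that gave whole reads, and set to the annotated length where that was a multiple of it. By these lengths the front features other than YLR342W-A are longer than the annotated genes. This bears on what a read behind a stop codon was counted as. RPS10B had a feature length of 865 nt where the annotated gene spans 728 nt, RPL4A 1289 nt where the gene spans 1089, and RPL29 705 nt where the gene spans 180. The extra length was 137, 200 and 525 nt, and the file does not say on which side it lies. The feature lengths of YMR230W-A, YBR032W and RRT5 were 189, 303 and 870 nt, equal to their ORFs, which the way of recovery may have set. That of MBR1 was 1441 nt for an ORF of 1020 nt. The density is a mean over the feature, so where in an ORF its reads fall is not known, and whether a read came from a transcript that began at the ORF or in front of it was not tested. The kit keeps the strand, but no source used here says whether the counting used it.

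The next gene behind each ORF on the same strand was tested too. Behind YMR230W-A, after 88 nt, lies PEP5, a vacuolar sorting gene, which had 0.193 and 0.234 in untreated parental and 0.204 and 0.208 in untreated tagged libraries. Its strain difference was −0.04 ± 0.15 (adjusted p = 0.82) untreated and 0.32 ± 0.15 (adjusted p = 0.0657) with rapamycin. Untreated it was called lower after quantile normalization (−0.37, adjusted p = 0.0131), protein-coding scaling (−0.29, 0.0249) and snoRNA scaling (−0.68, 0.0139). YMR230W-A, which was read at less than the density of PEP5 in every parental library, was above PEP5 in every tagged one. Behind YBR032W, after 122 nt, lies EDS1, a putative transcription factor gene, at 0.0167 and 0.0139 in untreated parental and 0.0197 and 0.0217 in untreated tagged libraries. Its difference was 0.31 ± 0.22 (adjusted p = 0.253) and 0.60 ± 0.22 with rapamycin (adjusted p = 0.0187, and 0.199 without parental rapamycin replicate 2 or 0.0752 without tagged rapamycin replicate 2), where quantile normalization turned it to −0.17. The call of EDS1 with rapamycin was also lost under protein-coding scaling (0.22, adjusted p = 0.433) and snoRNA scaling (0.088, 0.844). EDS1 was below YBR032W in every library, with the wider gaps in the tagged strain.

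Behind RRT5, after 671 nt, the ribosomal protein gene RPL2A, which has a near-identical copy, differed by −0.27 ± 0.14 (adjusted p = 0.106) and −0.26 ± 0.14 (0.0903), and behind SPO19, after 239 nt, TAF14, a subunit gene of several transcription complexes, by 0.27 ± 0.15 (0.139) and 0.78 ± 0.15 (0.000106). TAF14 fell below the threshold after scaling to snoRNAs (0.11, adjusted p = 0.76), and RPL2A was called lower in both conditions under the quantile, protein-coding and snoRNA scalings (−0.53 to −0.93). Of these 4 next genes EDS1 and TAF14 passed the test, both with rapamycin, where 70.3% of all features were higher. The next genes of the other 4 ORFs lie 1550 to 6069 nt away. Of these, higher in untreated tagged cells were RPL26A behind GAS2 (0.45 ± 0.15, adjusted p = 0.0154), the DNA repair gene PSO2 behind YMR141C (0.56 ± 0.16, 0.00867) and FMP10 behind DMC1 (0.47 ± 0.15, 0.0136), and with rapamycin all of these (0.58, 0.85 and 0.96) and CUE2 behind MBR1 (0.69). Each of the 3 untreated calls was lost without parental untreated replicate 1 (adjusted p = 0.209, 0.0618 and 0.134) or tagged untreated replicate 1 (0.0874, 0.119 and 0.184), and after scaling to snoRNAs their values were −0.20, −0.038 and −0.17. With rapamycin that scaling ended all 4 calls, and RPL26A turned to −0.0955. Over all features 43.5% were higher untreated and 70.3% with rapamycin, so nothing is read from the counts of next genes.

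**Figure D3:**
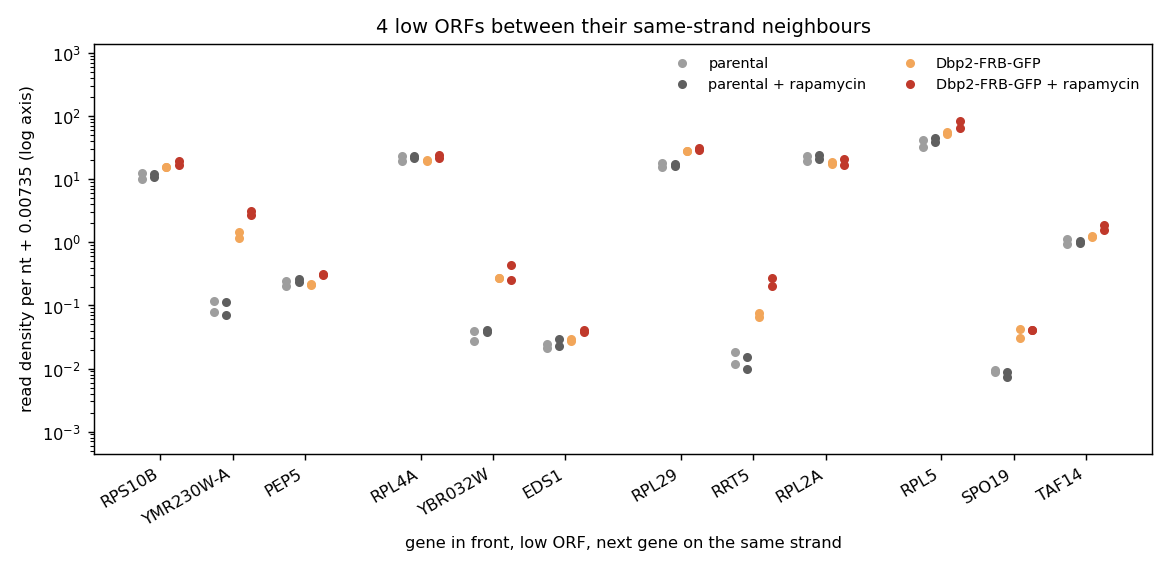
Read density (reads per nt, log axis, plus the pseudocount) in each library for the gene in front, the low ORF and the next gene on the same strand, at YMR230W-A, YBR032W, RRT5 and SPO19. The step between the parental and tagged libraries is wide at the ORF in the middle of each group and small at the genes on both sides.

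The ORFs were not chosen by their change with rapamycin, although the same libraries entered the choice. In the parental strain 0 of the 8 were called by limma and 0 by voom on recovered reads, where 0.0309% of all features were called (3 features, and 528 at an unadjusted p under 0.05, with 0 of the 8 among them). Their fitted changes ran from −0.38 in YMR141C to 0.30 in GAS2, with a median of −0.03 beside 0.10 over all features. In the tagged strain 2 of the 8 rose, where 13.3% of all features rose, and the median was 0.30 beside 0.32. YMR230W-A rose by 1.13 ± 0.20 (adjusted p = 0.00493), a fold of the means of 2.19, and RRT5 by 1.73 ± 0.24 (adjusted p = 0.000543), a fold of 3.60. High densities in the treated tagged libraries helped to choose both ORFs, so neither p is independent of the choice. RRT5 passed the filter only by its tagged libraries, since all its parental densities were below 0.0127. In both genes the 2 treated tagged libraries lay above the 2 untreated ones, as in 76.5% of all features. Their front genes RPS10B and RPL29 changed by 0.21 ± 0.13 (adjusted p = 0.198) and 0.09 ± 0.12 (0.542) in the same comparison. Both ORF calls ended after quantile normalization (adjusted p = 0.182 and 0.0874) and under protein-coding scaling (0.192 and 0.114), with changes of 0.79 or more for YMR230W-A and 1.39 or more for RRT5.

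The other 6 ORFs were not called in the tagged strain by limma, while voom on recovered reads also called GAS2 (0.37, adjusted p = 0.0464). GAS2 changed by 0.37 ± 0.15 (adjusted p = 0.0805), MBR1 by 0.34 ± 0.17 (0.128), YBR032W by 0.27 ± 0.21 (0.283), YMR141C by 0.27 ± 0.21 (0.285), SPO19 by 0.17 ± 0.25 (0.56) and DMC1 by 0.15 ± 0.23 (0.572). In YBR032W, SPO19 and DMC1 the treated and untreated tagged libraries overlapped. YBR032W would be called without tagged rapamycin replicate 2, its lower treated library (0.64, adjusted p = 0.0199).

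The interaction asks whether rapamycin acted differently in the 2 strains. RRT5 was 1 of 4 features called among 9719 (0.0412%), with 2.01 ± 0.34 (limma adjusted p = 0.0237): it changed by −0.28 ± 0.24 in parental and rose by 1.73 ± 0.24 in tagged cells. This value is also the difference of the 2 strain differences that chose RRT5, and the gene was tested only because of its tagged libraries, so the p is not independent of the choice. Its parental values rest on 2 to 10 reads, and the call was lost without parental untreated replicate 2 (1.68, adjusted p = 0.128), with no filter (0.12), without a trend (0.0755), at the lower pseudocount (0.094), after quantile normalization (1.75, 0.376) and under protein-coding scaling (1.74, 0.387). YMR230W-A had an interaction of 1.24 ± 0.29 (adjusted p = 0.138), which was called under 8 of the alternatives, 5 of which leave out 1 library. Among those were the replicate number as a block (adjusted p = 0.000733), the stricter filter (9.37e-05) and scaling to snoRNAs (0.0278). Leaving out parental rapamycin replicate 2 gave 1.56. The interaction of YMR230W-A is likewise the difference of the 2 strain differences that chose it, so none of these p is independent of the choice. The other 6 interactions lay between −0.02 ± 0.30 in YBR032W and 0.66 ± 0.30 in YMR141C, with adjusted p of 0.509 or more. Whether the 8 ORFs differ from one another in their response to rapamycin was not tested.

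**Figure D4:**
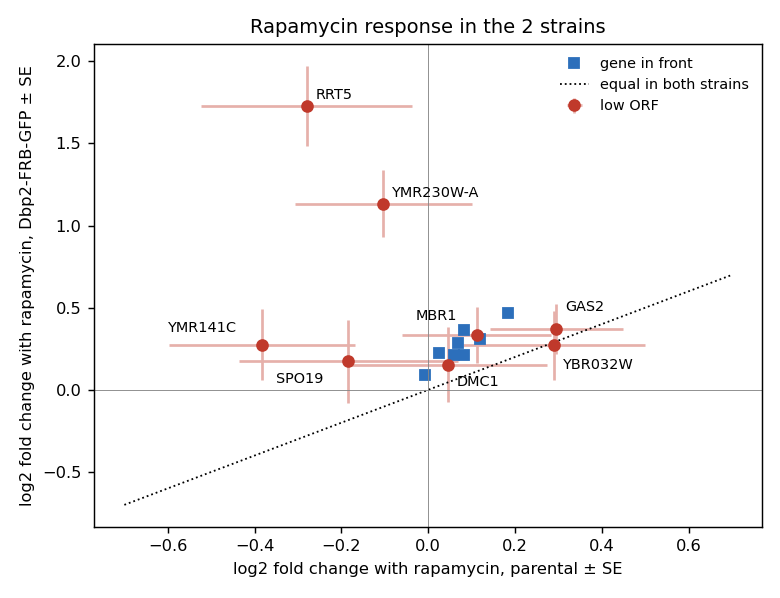
Log2 change with rapamycin in the parental strain (horizontal) and in the tagged strain (vertical), ± standard error for the 8 ORFs (circles) and without error bars for the genes in front (squares), with a dotted line of equal change. RRT5 at −0.28 and 1.73 and YMR230W-A at −0.10 and 1.13 lie above the line and apart from the other ORFs.

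A further 156 low ORFs lay under 500 nt behind a gene at least 10-fold higher on the same strand, of which 133 passed the filter. Without rapamycin 49 of these were higher in the tagged strain, 36.8% beside 31.9% of all low ORFs and 43.5% of all features, with a median of 0.33. The count was 22 without parental untreated replicate 1, and 26 and 28 without tagged untreated replicates 1 and 2. With rapamycin 104 of 133 were higher, 78.2% beside 68.3% of all low ORFs and 70.3% of all features, with a median of 0.62. Most of these calls, in both conditions, were lost after scaling to snoRNAs. These medians were close to those of all features, 0.36 and 0.59. Of the 133, 2 were at least 2-fold higher without rapamycin, 1.5% beside 3.35% of all low ORFs and 9.77% of all features, and 19 with it, 14.3% beside 10.7 and 19.6%. The 8 are the top end of the class by choice and were left out of it and of the low ORFs. Leaving them out lowers the shares and medians of the class, so no lack of strong rises is read from these counts. Of low ORFs whose front gene on the same strand was not 10-fold higher, 28.7% and 67.4% of 715 were higher, with medians of 0.26 and 0.51. Of those whose nearest neighbour on the 5′ side lay on the other strand, 33.1% and 69.2% of 1407 were higher. A convergent neighbour at least 10-fold higher gave 33.2% and 73.2% of 205. No test of these shares against each other was made.

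Within the class, the share of ORFs higher with rapamycin was 78.8% of 85 behind a gene 10 to 30 times higher, 71.0% of 31 behind one 30 to 100 times higher and 88.2% of 17 behind one at least 100 times higher, the last a bin of few ORFs. Among the 8 the front gene was 12.9 (YMR230W-A), 13.8 (MBR1), 35.3 (GAS2), 131 (YBR032W), 247 (DMC1), 298 (RRT5), 327 (YMR141C) and 3214 (SPO19) times higher over all libraries. These ratios include the tagged libraries, so a rise of the ORF in the tagged strain lowers its ratio. YMR230W-A had the lowest ratio on this measure and the highest difference. In untreated parental cells it stood at 0.797% of its front gene, below GAS2 (1.22%) and MBR1 (3.84%), so its ratio was not the lowest there. Whether the ratio goes with the strain difference was not tested. By distance, 81.0% of 21 class ORFs under 250 nt behind the front gene and 77.7% of 112 at 250 nt or more were higher with rapamycin.

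The members at the lower end and the ORFs just outside were close to each other. MBR1 at 1.63 and DMC1 at 1.31 were the lowest members with rapamycin, and 2 and 6 other ORFs of the class stood above them. The highest of these were REC102, a gene of meiotic recombination behind NMA1, at 1.74, and YIL105W-A behind MOB1, at 1.65 from 0 to 4 reads. DON1, a sporulation gene behind GLO2, stood at 1.51, COG5, a Golgi complex gene behind COX5A, at 1.45, and SSP1, a gene of spore membrane growth behind GND1, at 1.43. Without rapamycin 1 ORF stood above DMC1, YIL105W-A at 1.25.

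**Figure D5:**
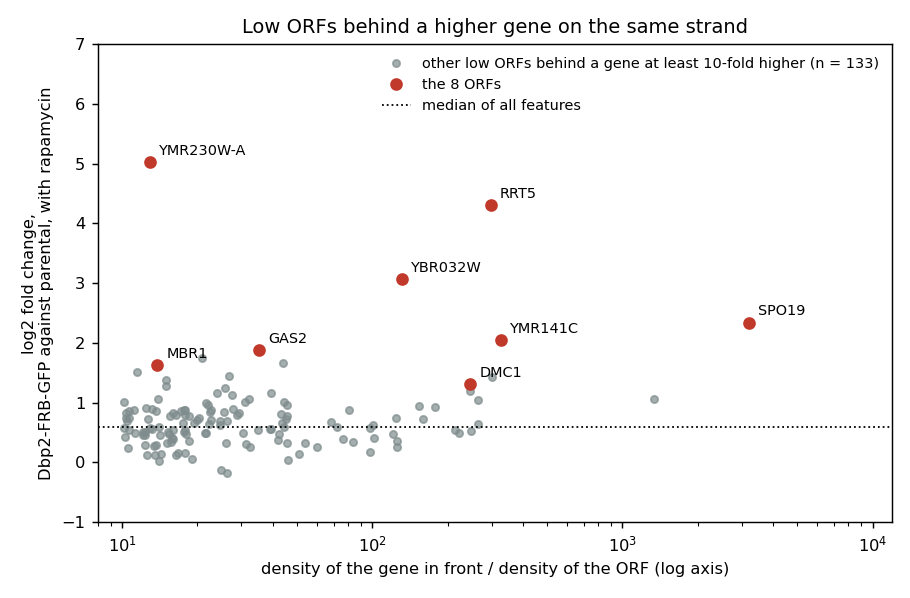
Log2 difference of tagged against parental cells with rapamycin (vertical) against the ratio of the front gene's density to that of the ORF (log axis) for the 8 ORFs and the 133 other tested low ORFs behind a gene at least 10-fold higher, with a dotted line at the median of all features, 0.59. The other ORFs gather around that line, and the 8 lie from 1.31 to 5.03 at ratios from 12.9 to 3214. The ratio is taken over all libraries, tagged ones included, so a rise of the ORF lowers it.

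Of the 8, SPO19, GAS2 and DMC1 are genes of meiosis and sporulation, which haploid cells growing in rich medium do not undergo. Of 33 others of a list of such genes 23 passed the filter, and 14 of these were higher and 1 lower in the tagged strain without rapamycin (median 0.64), and 19 and 1 with it (median 0.81). Higher were 43.5 and 70.3% of all features and 31.9 and 68.3% of all low ORFs, and a gene as low as these can pass the filter by its tagged libraries alone, so nothing is read from the count. MEI4, a gene of meiotic double-strand breaks, rose by 0.82 ± 0.17 untreated (adjusted p = 0.000842) and 1.32 ± 0.17 with rapamycin (2.6e-06). Its mean density in parental cells, 0.0397 untreated, was above the filter. The untreated call was lost after quantile normalization (0.20, adjusted p = 0.275) and scaling to snoRNAs (0.24, 0.42).

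Genes whose products end transcripts were compared too. Of 22 genes of cleavage and polyadenylation 7 were higher in untreated tagged cells (median 0.30) and 17 were higher with rapamycin (median 0.60), beside 43.5 and 70.3% of all features. CLP1, a subunit of cleavage factor IA, rose by 0.53 ± 0.15 untreated (adjusted p = 0.00655) and 0.97 ± 0.15 with rapamycin (1.48e-05). The untreated call did not hold without parental untreated replicate 1 (a difference of 0.42) or tagged untreated replicate 1 (0.52). After scaling to snoRNAs the untreated value turned to −0.11, and the call with rapamycin was lost (0.31, adjusted p = 0.338). Of 5 genes of the exonuclease pathway of termination 3 rose in each condition, beside the same shares of all features. Among them RAI1, the partner of the nuclear exonuclease Rat1, rose by 0.58 ± 0.15 (adjusted p = 0.00403) and 1.00 ± 0.15 (1.36e-05). After scaling to snoRNAs RAI1 was at −0.0615 untreated, and its call with rapamycin was lost (0.33, adjusted p = 0.295). Of NRD1, NAB3 and SEN1, NRD1 rose, by 1.06 ± 0.14 (adjusted p = 8.92e-06) and 1.13 ± 0.14 (1.65e-06). Its mean density went from 0.515 to 1.08 untreated, and both calls were lost after scaling to snoRNAs (0.41, adjusted p = 0.15, and 0.47, 0.115).

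By the mean profile of the 8 ORFs over the 8 libraries, the features most alike were NUT1147 (Pearson r of 0.999), XUT1609 (0.998), NUT0986 (0.998), the protein-coding YJL107C (0.998) and NUT0801 (0.998), where NUT names Nrd1-unterminated and XUT Xrn1-sensitive transcripts. The profile is mostly the step between the strains, which many features share: 1929 of 9703 had an r above 0.95, of which 797 were protein-coding, 427 NUTs, 355 XUTs and 307 CUTs, the cryptic unstable transcripts. NUT1147 went from 0.0179 ± 0.00315 to 0.0596 ± 0.00326 untreated (mean density ± SD, n = 2) and from 0.0187 ± 0.00114 to 0.0786 ± 0.00675 with rapamycin. Whether a NUT, XUT or CUT overlaps one of the 8 ORFs could not be read from these files, which give no coordinates.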

How the data were processed

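Per the file headers, the deposited table holds a signal for each of 10891 features, the authors' spike-in-scaled read density per nt, in 8 libraries and as a mean of each group. Trim Galore, HISAT2 2.2.0 with R64, featureCounts 2.0.0 and DESeq2 are named in the submitters' processing notes. Whole reads were recovered within 0.01 reads as density times a feature length times 1 factor per library, and came out whole for 10804 of 10891 features, the other 87 being 0 throughout. The length was chosen to give whole reads, so some reads may be too low by a common factor, and these reads describe depth and serve 1 alternative. Counts of replicates were further apart than sampling alone gives (a chi-square of 5.03 to 20.2 per degree of freedom), and nothing beyond the label of biological replicates says how separate their cultures were.

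Differences were tested with limma (version 3.58.1 in R 4.3.3) on log2(density + 0.00735), a pseudocount at the 5th percentile of the values above 0, with a trend and 1 spread for all libraries (residual degrees of freedom 4, prior 17.2), two-sided, with Benjamini-Hochberg adjustment at 0.05 over the 9719 features with a mean density of at least 0.0127. Positions, summaries and plots were made in Python 3.11.15 (matplotlib 3.10.9, scipy 1.17.1, pandas 2.3.3, numpy 2.4.6). The procedure was run on simulated reads in which a small share of features changed, up or down, with the same extra spread for every feature. No shift shared by most features was simulated, so that run does not cover the wide rise seen here. An exact permutation test of 2 against 2 libraries cannot reach 0.05 and was not run. Positions and sequences are from the RefSeq R64 reference, distances running from stop to start codon. The ORFs, lists and comparisons were chosen with earlier results of these data known. Named are the 8 ORFs, their front and next genes, DBP2, the 5 class ORFs with the highest difference outside the 8, the 5 features most like the mean profile and up to 4 called genes of each list. Alternatives were another pseudocount, filter, trend or scaling, voom on the recovered reads, a replicate block, other limits on distance and ratio, and leaving out each library, where the library left alone in its group is taken to vary as the other groups do.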

Additional observations from a re-analysis of the deposited data

Results flagged for a closer look

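The response of RRT5 to rapamycin differed between the strains by the test of the interaction, with 2.01 on the log2 scale (limma adjusted p = 0.0237). It changed by −0.28 in parental and rose by 1.73 in tagged cells, with both treated tagged libraries above both untreated ones. The value is also the difference of the 2 strain differences by which RRT5 was chosen, and the gene passed the filter on low densities only by its tagged libraries, so its p is not independent of the choice. The parental libraries held 2 to 10 reads of it, and the part of this low depth in the difference was not tested.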

How the results depend on the processing

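Same-numbered replicates did not deviate together (correlations of −0.134 to 0.146), so the numbers do not pair the libraries. With the replicate block the interaction called 2 of the 8 ORFs in place of 1, and it ended the calls of RPL13B untreated (adjusted p = 0.0668) and PDA1 with rapamycin (0.0571). The median strain difference of the 8 ORFs stayed above 0 in all alternatives. Untreated it was 1.64 and 2.31 at the higher and lower pseudocount, 1.47 after quantile normalization, 1.41 after scaling to snoRNAs and 2.52 by voom (1.80 to 1.97 leaving out a library). With rapamycin it was 1.84 and 2.76, 1.37, 1.77 and 2.81, and 1.83 by protein-coding scaling (2.19 to 2.29). For rapamycin in parental cells the count of ORFs called stayed at 0, and in tagged cells it was 3 by voom on recovered reads.

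Rapamycin in tagged cells called 2 ORFs, and 0 after quantile normalization and protein-coding scaling (2 to 3 leaving out a library). The interaction called 2 under the stricter filter and snoRNA scaling, and 0 with no filter, no trend, the lower pseudocount, quantile normalization and protein-coding scaling (0 to 2 leaving out a library, 0 without parental untreated replicate 2).

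By quantile, protein-coding and snoRNA scaling RPL4A was called lower in both conditions. Front genes called higher untreated were 4, with 2 by quantile and 0 by snoRNA scaling. With rapamycin they were 7, with 3 by quantile, 3 by protein-coding and 0 by snoRNA scaling (4 to 7, with 4 without parental rapamycin replicate 1). Class ORFs called untreated were 49, with 11 by quantile, 19 by protein-coding and 1 by snoRNA scaling, 7 under 250 nt, 85 at a ratio of 5 and 19 at 30 (22 to 56, with 22 without parental untreated replicate 1, 26 and 28 without tagged untreated replicates 1 and 2). With rapamycin they were 104, with 21, 38 and 9 by the same scalings, 17 under 250 nt, 181 at a ratio of 5 and 37 at 30 (78 to 112).

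Signs turned in 29 single values that were called in the main setting or in the alternative. By snoRNA scaling these were untreated RPS10B −0.16, RPL5 −0.13, YLR342W-A −0.48, RPL13B −0.31, PDA1 −0.51, RPL26A −0.20, PSO2 −0.038, FMP10 −0.17, CLP1 −0.11, YTH1 −0.18 and RAI1 −0.0615, and with rapamycin RPL26A −0.0955, RPS10B −0.0255, RPL4A −0.63, YLR342W-A −0.29, RPL13B −0.13, YJU3 −0.20, PDA1 −0.34 and DBP2 −0.14. By quantile normalization they were untreated RPL13B −0.0211 and PSO2 −0.0215 and with rapamycin RPL4A −0.50, YLR342W-A −0.0174, PDA1 −0.0928 and EDS1 −0.17. By protein-coding scaling they were, with rapamycin, RPL4A −0.45, YLR342W-A −0.11, YJU3 −0.0196 and PDA1 −0.16. Values called in neither setting are not in this list. With rapamycin in tagged cells 8 of the 8 ORFs were above 0, and 4 after quantile normalization and under protein-coding scaling. For the interaction 7 were above 0, and 4 under each of the same scalings. The cause was not tested. Parental libraries held 10 or fewer reads of YBR032W, RRT5, SPO19 and YMR141C, which limits the precision of their differences.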
